A study of Homo sapiens with 8 samples.

Results

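The transcripts of 10 genes of the RAS-ERK pathway were followed after loss of the transcription factor ETS1. The cells were SCC25, an established squamous cell carcinoma line of the tongue. The genes restrain signalling through the pathway, except PHLDA1, which was taken as a transcript readout of its output. All 10 are called inhibitors below. The genes were DUSP4, DUSP5, DUSP6, DUSP7, SPRY1, SPRY2, SPRY4, SPRED1, SPRED2 and PHLDA1, chosen by name as feedback inhibitors or transcript readouts of the pathway, out of 56638 gene symbols counted. The choice was made with earlier results of these data known, so that counts of these genes set beside shares of all genes are a description. All 10 had enough counts to be tested in both knockdowns. RNA sequencing had been run on 8 libraries in 4 groups of 2. All cells grew in DMEM/F12 medium with serum and hydrocortisone. The siRNA control group received non-targeting small interfering RNAs and the ETS1 siRNA group a pool of siRNAs against ETS1, both by transient transfection. The shCON and shETS1 groups stably expressed a control or an ETS1 short hairpin RNA from a lentivirus after puromycin selection. A single ETS1 hairpin is named in the labels, and the siRNAs against ETS1 were used as a pool. Effects of these sequences other than loss of ETS1 cannot be told apart from loss of ETS1 in these libraries. The methods call the siRNA samples biological replicates. The sources do not say whether the shRNA replicates came from separate cultures, so that the p-values there measure the spread between these samples, which may be technical.

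ERK is the last kinase of a relay that runs from growth factor receptors through RAS, RAF and MEK, and active ERK turns on many genes through transcription factors of the ETS and AP-1 families. Among those genes are inhibitors of the same relay, which makes them a negative feedback and a common transcript measure of pathway output. Dual-specificity phosphatases (DUSPs) remove the activating phosphates from ERK, Sprouty proteins (SPRY) interrupt the step from receptor to RAS, and SPRED proteins bring neurofibromin, which switches RAS off, to the membrane. In squamous cells the pathway often runs from the epidermal growth factor receptor. ERK activity itself is a matter of protein phosphorylation, which was not analysed here.

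After stable knockdown 9 of the 10 inhibitors fell, by 1.47 to 4.72-fold, and SPRED1 did not pass the test. After transient knockdown 2 fell, DUSP5 and DUSP6, by 1.47-fold and 1.53-fold. These counts stand beside 30.9% of all genes tested that were called lower after stable knockdown and 2.27% after transient knockdown. A gene was called changed at a Benjamini-Hochberg adjusted p under 0.1 over all genes tested, and levels are given as CPM, read counts relative to the scaled library size of each table. Levels of the siRNA and the shRNA libraries were scaled separately and are not directly comparable.

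Total counts ranged from 15954616 to 20469763 in the siRNA libraries and from 23834078 to 25953213 in the shRNA libraries. ETS1 itself stood at 288 and 248 CPM in the siRNA control libraries against 17.4 and 13.2 in ETS1 siRNA, and at 82.3 and 72.1 CPM in shCON against 9.76 and 11.1 in shETS1. It fell by 4.13 and 2.89 on the log2 scale, so that every library matched its label. The 8 markers of squamous epithelial cells were all present, and summed to 12657 to 16161 CPM per siRNA control library against 18972 to 21721 CPM with ETS1 siRNA, and to 12664 to 12795 CPM per shCON library against 19364 to 19529 CPM with shETS1. None of the 8 was called after siRNA, with 4 at an unadjusted p under 0.05, beside 2721 of all 14742 genes tested. After stable knockdown KRT5, KRT14, KRT17 and ITGA6 rose, by 0.24 to 1.17 on the log2 scale. TP63, ITGB4, CDH3 and EPCAM fell there, by 0.40, 0.29, 0.69 and 0.60. Over all genes tested after stable knockdown 29.7% were called higher and 30.9% lower. The 3 endothelial markers summed to at most 0.756 CPM and the 5 leukocyte markers to at most 1.06 CPM in any library. Of the endothelial ones VWF had 2 to 15 counts per library and CDH5 at most 2, and PECAM1 was listed at 0 in all 8. The 6 fibroblast markers summed to between 183 and 214 CPM in siRNA control, 285 and 333 CPM in ETS1 siRNA, 254 and 279 CPM in shCON, and 2132 and 2232 CPM in shETS1. All 5 of them that were tested after stable knockdown rose, by 0.96 to 3.54 on the log2 scale, beside 29.7% of all genes tested. PDGFRB, the sixth, had at most 0.392 CPM in any shRNA library. After transient knockdown 1 of the 6 was called, COL1A1, which rose by 0.73, beside 1.13% of all genes tested called higher. The part of these genes in the changes of the inhibitors was not tested. Structural RNAs took 5.61 to 6.63% of the counts in shCON and 9.64 to 12.3% in shETS1, and their part was tested only by leaving them out, which kept 9 inhibitors called.

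To show the sequence in front of the inhibitors, promoter windows of 300 bases, from 250 before to 50 after an annotated start, were searched on both strands for the ETS motifs CCGGAAG and CAGGAAG, the AP-1 motif TGANTCA and the CRE motif TGACGTCA. RefSeq windows on the build GRCh38.p14 were at hand for 8 of the 10 genes, all but DUSP4 and DUSP5. The 250 bases upstream of the start are printed for the inhibitor that did not change after stable knockdown, for the most weakly expressed one, and for the 3 of these 8 genes that fell the most, with motif matches in capitals and written 5′ to 3′ on the gene's strand. They lie at chr15:38252586-38252835 on the plus strand for SPRED1, at chr4:123398136-123398385 on the plus strand for the second of the 2 SPRY1 starts, and on the minus strand at chr12:89352502-89352751 for DUSP6, chr5:142324248-142324497 for SPRY4 and chr12:76031777-76032026 for PHLDA1.
SPRED1: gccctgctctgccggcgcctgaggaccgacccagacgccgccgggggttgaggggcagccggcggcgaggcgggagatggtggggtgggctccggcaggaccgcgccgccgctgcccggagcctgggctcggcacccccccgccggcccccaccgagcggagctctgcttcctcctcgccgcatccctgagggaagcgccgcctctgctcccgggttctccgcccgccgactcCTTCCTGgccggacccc
SPRY1: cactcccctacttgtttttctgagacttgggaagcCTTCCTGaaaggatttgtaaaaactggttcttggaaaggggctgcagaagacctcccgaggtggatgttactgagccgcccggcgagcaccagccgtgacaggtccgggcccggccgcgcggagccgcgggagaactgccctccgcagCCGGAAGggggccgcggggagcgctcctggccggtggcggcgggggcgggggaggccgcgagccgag
DUSP6: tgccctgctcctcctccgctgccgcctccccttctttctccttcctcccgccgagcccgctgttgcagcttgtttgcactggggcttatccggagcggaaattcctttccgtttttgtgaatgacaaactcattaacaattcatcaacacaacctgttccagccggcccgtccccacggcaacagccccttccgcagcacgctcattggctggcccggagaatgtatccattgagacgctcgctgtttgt
SPRY4: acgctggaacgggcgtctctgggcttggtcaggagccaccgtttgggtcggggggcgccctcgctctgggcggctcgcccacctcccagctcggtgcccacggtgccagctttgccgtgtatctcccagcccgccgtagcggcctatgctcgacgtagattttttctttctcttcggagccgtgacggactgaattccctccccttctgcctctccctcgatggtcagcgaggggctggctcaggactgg
PHLDA1: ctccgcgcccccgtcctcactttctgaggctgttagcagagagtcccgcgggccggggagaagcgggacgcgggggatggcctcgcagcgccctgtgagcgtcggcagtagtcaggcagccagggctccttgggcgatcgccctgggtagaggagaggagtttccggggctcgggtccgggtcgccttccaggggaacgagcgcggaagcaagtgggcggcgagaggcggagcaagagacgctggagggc
The capitals mark CAGGAAG on the minus strand in SPRED1, beginning 17 bases before the start, and in SPRY1, beginning 215 bases before it. This second SPRY1 window held a CCGGAAG on its own strand as well, 67 bases before the start, and the first SPRY1 window held none of the 4 motifs. One of the 3 SPRY2 windows and 1 of the 2 SPRED2 windows also held CAGGAAG, and the same SPRED2 window held 2 AP-1 matches. The windows of DUSP6, DUSP7, SPRY4 and PHLDA1 held none of the 4 motifs. Either ETS motif stood in 21.8% of all 35116 windows, with CCGGAAG in 10.3% and CAGGAAG in 12.7%, and the AP-1 and CRE motifs in 7.71% and 1.85%. These are matches of letters in short windows, and distal elements were not searched.

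The inhibitors differed widely in level. Compared per length, as CPM per kilobase of exon (RPKM), PHLDA1 was the most abundant and DUSP7 the next in all 4 groups, and SPRY1 was the lowest in all 4. In siRNA control PHLDA1 stood at 85.7 RPKM ± 13.4 (SD, n = 2), DUSP7 at 28.0 ± 0.892, DUSP5 at 22.7 ± 0.516 and DUSP6 at 21.7 ± 1.17. The ranges of DUSP5 and DUSP6 overlapped, and those of the other neighbours among these 4 did not. SPRY4, DUSP4 and SPRED2 followed between 5.90 and 6.85 RPKM, then SPRED1 and SPRY2 at 4.03 ± 0.533 and 3.86 ± 0.00391, which overlapped, and SPRY1 at 0.303 ± 0.105. In shCON the order was PHLDA1, DUSP7, DUSP6, DUSP5, SPRED1, SPRY2, SPRED2, SPRY4, DUSP4 and SPRY1, with only SPRED1 and SPRY2 overlapping. In shETS1 the span from the highest to the lowest member was narrower than in shCON, from 5.89 RPKM ± 0.455 for PHLDA1 to 0.174 ± 0.0338 for SPRY1, and SPRED1 had moved from the fifth to the third place at 4.70 ± 0.250. DUSP4 and SPRY1 overlapped at the bottom of that group, and SPRY2 overlapped SPRED2.

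**Figure D1:**
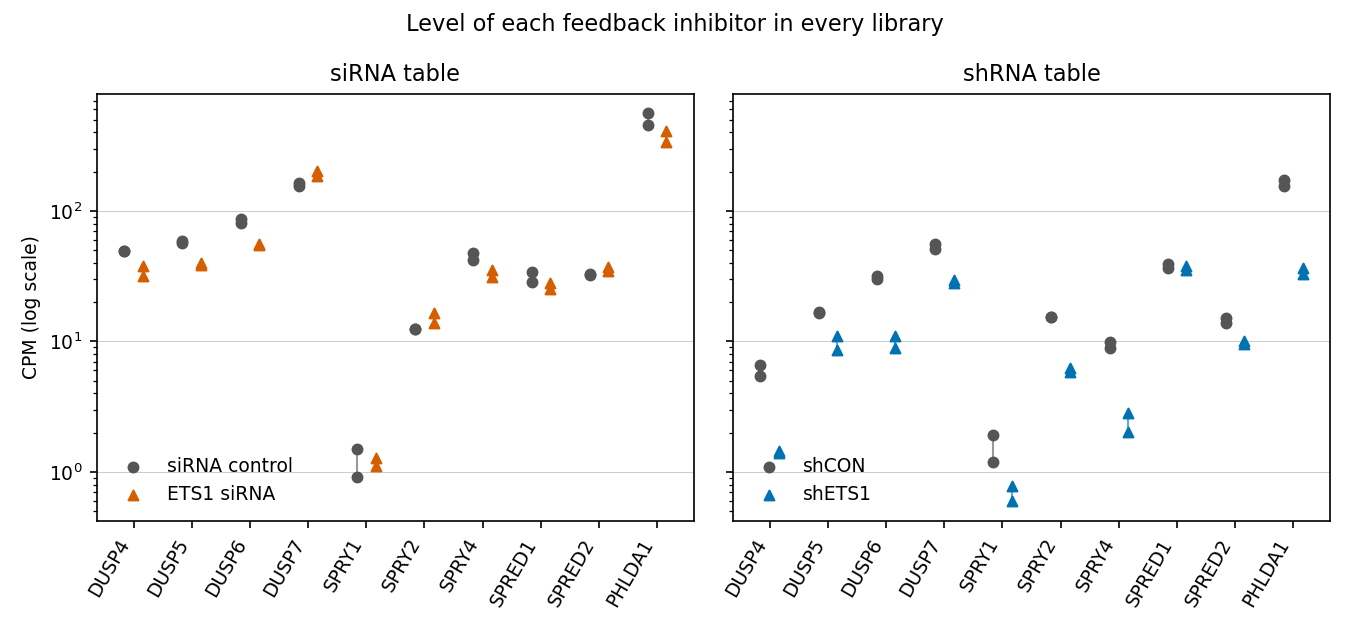
Level of the 10 feedback inhibitors in each library, in CPM on a log scale, scaled separately in the siRNA table (left) and the shRNA table (right). Each point is 1 of the 2 libraries of a group and thin lines join libraries of a group. In the shRNA table the shETS1 points lie below the shCON points for 9 genes, and for SPRED1 they overlap.

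The effect of lasting ETS1 loss was asked by setting shETS1 against shCON. Of the 10 inhibitors 9 were called lower and none higher, in a comparison in which 30.9% of the 16481 genes tested were called lower and 29.7% higher. The median log2 fold change of the 10 was -1.26, beside 0.00066 over all genes tested. In bulk RNA, fewer cells of a type and less RNA per cell cannot be told apart. The 2 groups did not overlap in CPM for 9 inhibitors, all lower in shETS1, where 38.6% of all genes tested showed such a separation in that direction.

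Among the nuclear phosphatases, DUSP4 (chr8:29190581-29208201 on GRCh37, as for the other gene positions), which acts on ERK and on JNK, had 6.60 and 5.47 CPM in shCON and 1.44 and 1.39 CPM in shETS1. Both shETS1 libraries were far below both controls, at 33 and 35 counts against 166 and 142. DUSP4 fell by 2.09 on the log2 scale (SE 0.20, adjusted p = 1.5e-07). DUSP5 (chr10:112257665-112271291), which is selective for ERK, had 16.7 and 16.6 CPM in shCON and 10.98 and 8.56 CPM in shETS1. The knockdown libraries were again the lower ones but differed more from each other than the controls did, and DUSP5 fell by 0.77 (SE 0.13, adjusted p = 5.8e-05).

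The cytoplasmic ERK phosphatases among the inhibitors, DUSP6 and DUSP7, fell as well. DUSP6 (chr12:89741012-89746278) had 30.1 and 31.7 CPM in shCON against 11.1 and 8.88 in shETS1, a 3.10-fold decrease (SE 0.11 on the log2 scale, adjusted p = 2.3e-09), and fell by 1.63 on that scale. DUSP7 (chr3:52082935-52090587) had 56.0 and 50.6 CPM against 27.8 and 29.7, and fell by 0.89 (SE 0.09, adjusted p = 1.5e-07). The groups were well apart for both genes. No exon of these or of the other inhibitors shared bases with another counted gene whose symbol matched a single annotated gene. Of the 56638 symbols, 20868 had no match and 358 matched several genes, and these were not checked.

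The 3 Sprouty genes among the 10 inhibitors fell. The remaining family member, SPRY3, belongs to the list of other restraints described further on and was called higher. SPRY4 (chr5:141689992-141706020) had 9.94 and 8.94 CPM in shCON and 2.00 and 2.81 in shETS1, and fell by 1.96 (SE 0.18, adjusted p = 5.7e-08). SPRY2 (chr13:80910111-80915261) had 15.3 CPM in both shCON libraries against 5.79 and 6.26, and fell by 1.34 (SE 0.12, adjusted p = 8.3e-08). For both genes each control library lay far above each knockdown library. SPRY1 (chr4:124317950-124324915) was measured on few reads, 30 and 50 counts in shCON against 18 and 15 in shETS1, or 1.19 and 1.93 CPM against 0.784 and 0.595. It fell by 1.18 (SE 0.35, adjusted p = 0.0081), and without the second shCON library the change was -0.79 (adjusted p = 0.16), so that this call rested on that library.

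The SPRED genes parted. SPRED2 (chr2:65537985-65659771) had 15.1 and 13.8 CPM in shCON and 9.59 and 10.1 in shETS1, and fell by 0.55 on the log2 scale (SE 0.12, adjusted p = 0.00070). SPRED1 (chr15:38545037-38649450) had 36.3 and 39.1 CPM in shCON and 37.8 and 35.1 in shETS1. The SPRED1 groups overlapped, and the change of -0.05 (SE 0.09, adjusted p = 0.66) had a 95% interval from -0.23 to 0.13, which leaves out a fall of the size of SPRED2. With scaling by library size alone, which moved the median of all genes to -0.12, SPRED1 was called lower at -0.18.

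PHLDA1 (chr12:76419227-76425556) encodes a pleckstrin homology-like domain protein, and its transcript is a member of common signatures of ERK output. It had 174 and 155 CPM in shCON and 32.9 and 36.7 in shETS1. This was the strongest fall of the 10, by 2.24 on the log2 scale (SE 0.09, adjusted p = 1.1e-12), and the smallest relative error. In order of fold change it was the gene at place 184 from the bottom of 16481. DUSP4, SPRY4 and DUSP6 were at places 215, 260 and 451, so that 4 of the inhibitors lay among the lowest 2.73% of genes tested. The summed level of the 10 inhibitors was 339 and 361 CPM in the shCON libraries and 140.2 CPM in both shETS1 libraries, with PHLDA1 the largest part of that sum in the controls.

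**Figure D2:**
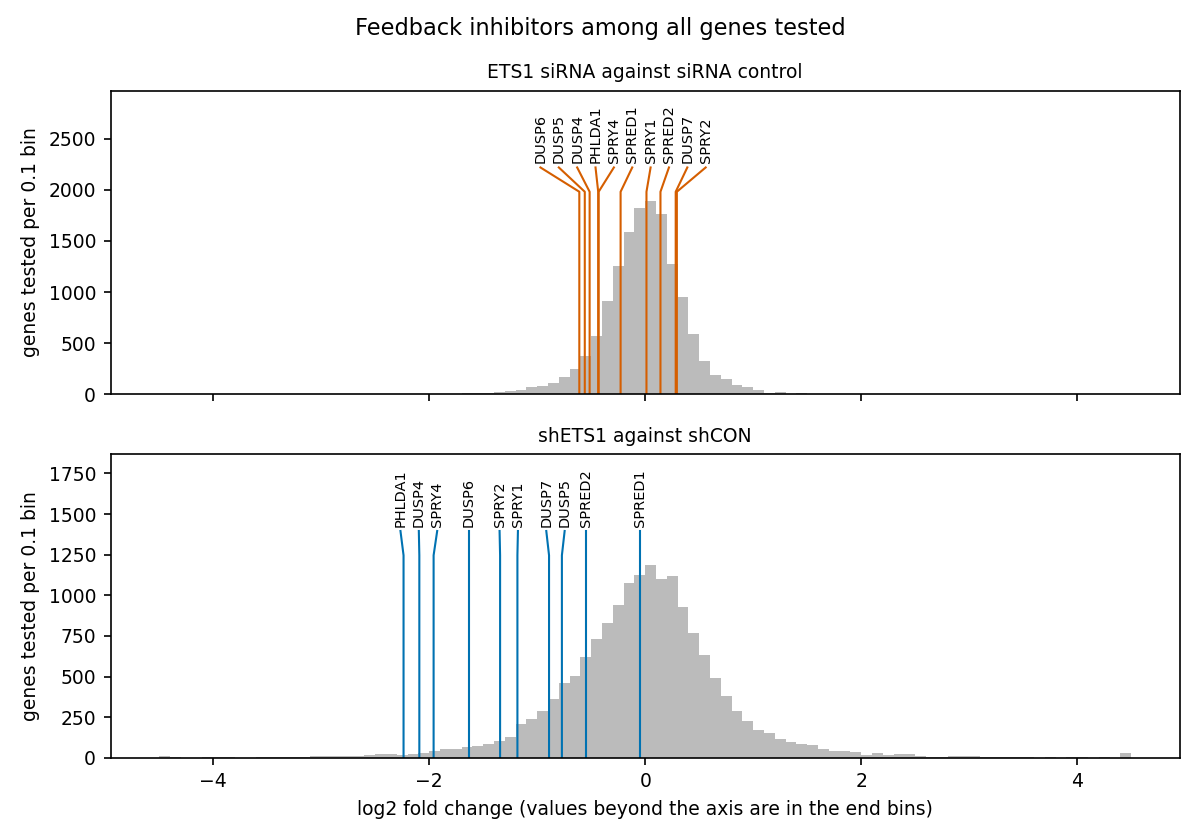
Distribution of the log2 fold changes of all genes tested (grey, in bins of 0.1) after transient (top, 14742 genes) and stable knockdown (bottom, 16481 genes), with a vertical line at each inhibitor. After stable knockdown 4 of them lie in the lowest 2.73% of genes and SPRED1 near the middle, and after transient knockdown they lie between -0.61 and 0.29.

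The effect of short-term ETS1 loss was asked by setting ETS1 siRNA against siRNA control. DUSP5 and DUSP6 were called lower and no inhibitor was called higher, where 2.27% of the 14742 genes tested were called lower and 1.13% higher. At an unadjusted p under 0.05 there were 5 inhibitors, beside 2721 of the 14742 genes tested. The median log2 fold change of the 10 was -0.33 beside 0.0018 over all genes. The CPM of the groups did not overlap for 6 inhibitors that were lower and for 3 that were higher, beside 26.2% and 25.7% of all genes tested. The siRNA libraries varied more between replicates, with a common dispersion of 0.0192 against 0.00402 in the shRNA libraries.

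DUSP6 had 87.1 and 80.7 CPM in siRNA control and 55.6 and 54.4 in ETS1 siRNA, and fell by 0.61 on the log2 scale (SE 0.12, adjusted p = 0.055). DUSP5 had 58.5 and 56.7 CPM against 39.6 and 38.6, and fell by 0.56 (SE 0.11, adjusted p = 0.064). In both genes the libraries of a group were close together and the groups well apart. Neither call held at a threshold of 0.05 or when either siRNA control library was left out, where the changes stayed between -0.66 and -0.54, and DUSP5 also lost its call without the second ETS1 siRNA library.

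DUSP4, SPRY4 and PHLDA1 had lower values in both ETS1 siRNA libraries without passing the test. DUSP4 had 49.1 and 49.6 CPM in the controls and 37.6 and 31.6 after ETS1 siRNA (log2 fold change -0.51, SE 0.13, adjusted p = 0.11), and it passed with DESeq2 (adjusted p = 0.068). SPRY4 had 47.8 and 42.0 CPM against 35.3 and 31.3 (-0.43, SE 0.13, adjusted p = 0.15). PHLDA1 had 563 and 451 CPM against 339 and 411 (-0.44, SE 0.16, adjusted p = 0.20), and here the spread within each group was large beside the gap of the groups.

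The remaining inhibitors gave small values in both directions. DUSP7 had 162 and 155 CPM in siRNA control and 202 and 184 in ETS1 siRNA (0.28, SE 0.13, adjusted p = 0.29), and SPRY2 had 12.4 CPM in both controls against 13.9 and 16.5 (0.29, SE 0.16, adjusted p = 0.37). Both ETS1 siRNA libraries were the higher ones in these 2 genes, with 95% intervals from -0.01 to 0.58 and from -0.07 to 0.66. SPRED2 had 32.9 and 32.1 CPM against 37.2 and 34.5 (0.14, adjusted p = 0.58). SPRED1 had 34.2 and 28.3 CPM against 25.1 and 28.2 (-0.23, adjusted p = 0.45), so that its groups came within 0.1 CPM of each other. SPRY1, at 18 to 26 counts per library, had 0.907 and 1.497 CPM against 1.11 and 1.28 (0.01, SE 0.38), and a change in either direction was not detectable at this depth within a 95% interval from -0.86 to 0.88.

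**Figure D3:**
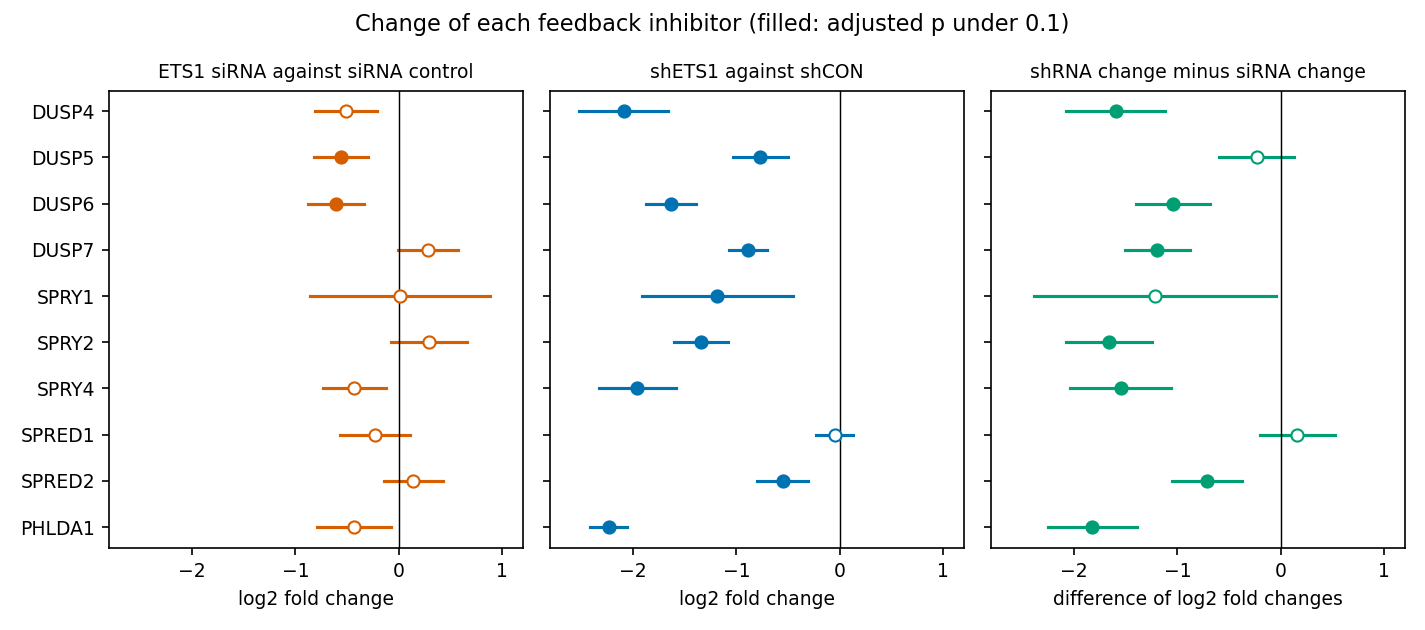
Log2 fold change of each inhibitor with its 95% interval after transient (left) and stable knockdown (middle), and the shRNA change minus the siRNA change (right). Filled points passed an adjusted p of 0.1, which 2, 9 and 7 of the 10 genes did, all below 0.

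Whether the knockdowns differed was tested directly, as the stable change minus the transient change in one fit of all 8 libraries. That fit had a common dispersion of 0.0109, below the 0.0192 of the siRNA libraries and above the 0.00402 of the shRNA libraries. Its p-values may thus understate the spread of the siRNA libraries. The difference was called for 7 of the 10 inhibitors, all toward a lower value after stable knockdown, where 19.7% of the 17190 genes tested were called in that direction. PHLDA1 differed by -1.82 (SE 0.19), SPRY2 by -1.66 (SE 0.19), DUSP4 by -1.60 (SE 0.22) and SPRY4 by -1.55 (SE 0.22). DUSP7 and SPRY2, whose values were slightly above the control after siRNA, were among these 7, with DUSP7 at -1.19 (SE 0.14, adjusted p = 0.00024). DUSP6 at -1.04 (SE 0.16) and SPRED2 at -0.71 (SE 0.15) complete them. The difference of DUSP5 was -0.23 with a 95% interval from -0.60 to 0.13 (adjusted p = 0.34), and DUSP5 was the one inhibitor called lower in both knockdowns whose difference did not pass. SPRED1 (0.16, interval -0.20 to 0.52) and SPRY1 (-1.22, interval -2.39 to -0.05, adjusted p = 0.12) did not pass either. ETS1 itself was the less reduced in the stable cells, with a difference of 1.23 (SE 0.21). Duration, delivery, the sequences of the siRNAs and the hairpin, and the sequencing table changed together between the knockdowns and cannot be told apart. Structural RNAs took 0.00086 to 0.0034% of the counts in the siRNA libraries and 5.61 to 12.3% in the shRNA libraries. Mitochondrial genes took 0% in the siRNA libraries and 0.508 to 0.820% in the shRNA libraries. With these genes left out, the difference was again called for 7 inhibitors.

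Other genes of the pathway were taken from 4 lists, which were also chosen with earlier results of these data known. The other MAP kinase phosphatases, most of which act on the stress kinases JNK and p38 as well as or in place of ERK, numbered 6. None of the 6 was called lower after stable knockdown and 3 were called higher, beside 30.9% and 29.7% of all genes tested, and their median was 0.41. DUSP1, an immediate-early phosphatase of several MAP kinases, had 34.2 and 34.8 CPM in shCON and 143 and 139 in shETS1, and rose by 2.03 on the log2 scale (SE 0.08, adjusted p = 8.3e-13). DUSP10 rose by 1.17 (SE 0.09) and DUSP16 by 0.81 (SE 0.09), both phosphatases of JNK and p38. DUSP2, DUSP8 and DUSP9 were not called, at -0.10, 0.0042 and -0.04 (adjusted p = 0.54, 0.99 and 0.90). DUSP4, DUSP5, DUSP6 and DUSP7 of the 10 inhibitors fell in the libraries in which DUSP1, DUSP10 and DUSP16 rose. After siRNA none of the 6 was called by edgeR or by DESeq2. At an unadjusted p under 0.05 in edgeR there were 3, beside 2721 of all 14742 genes tested. Without the first ETS1 siRNA library the median log2 fold change of the 6 was -0.38, against -0.19 with every siRNA library. DUSP1 had 36.5 and 34.5 CPM against 33.5 and 30.8 in ETS1 siRNA.

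The list of other restraints of RAS and ERK held 10 genes, of which 9 were tested after stable knockdown. Of these 5 fell and 3 rose, with a median of -0.34, where 30.9% of all genes tested were called lower and 29.7% higher, so that the share that rose was near that of all genes. SPRY3, named here after its values were seen, was among the 3 that rose, with 15 counts in each shCON library and 25 and 26 in shETS1 (log2 fold change 0.85, SE 0.35, adjusted p = 0.053), and was listed at 0 in all 4 siRNA libraries. LRIG1, which restrains the epidermal growth factor receptor, fell by 1.38 (SE 0.18), from 6.21 and 6.17 CPM to 2.48 and 2.26. CBL, a ubiquitin ligase that removes active receptors, fell by 1.02 (SE 0.13), NF1, which encodes neurofibromin, by 0.63 (SE 0.12), and DAB2IP, another inhibitor of RAS, by 0.43 (SE 0.10). PEBP1, which encodes a RAF inhibitor protein, rose by 0.53 (SE 0.07). LRIG1, CBL and NF1 share exon bases with a gene on the other strand, and the use of strand in counting is not given in the sources used here, so that reads of the 2 strands cannot be told apart. After siRNA none of the 8 tested was called by edgeR, and DESeq2 called 3. At an unadjusted p under 0.05 in edgeR there were 3, beside 2721 of all 14742 genes tested. edgeR called 2 when either ETS1 siRNA library was left out and 1 without the second siRNA control library.

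The RAS-ERK cascade itself was a list of 18 genes, from adaptors to kinases. After stable knockdown 6 fell and 3 rose, with a median of -0.04, which is near the share of all genes called lower (30.9%) and below the share called higher (29.7%). SOS2, an exchange factor that loads RAS with GTP, rose by 1.11 (SE 0.07), and the ERK kinase gene MAP2K1 fell by 0.61 (SE 0.07), the RAF gene ARAF by 0.72 (SE 0.09), and the ERK-activated kinase genes RPS6KA1 and RPS6KA3 by 0.76 (SE 0.07) and 0.68 (SE 0.08). After siRNA 2 of the 18 were called, both lower, and both act at RAS, beside 2.27% of all genes tested called lower. Without the first ETS1 siRNA library the median log2 fold change of the 18 was -0.21, against -0.10 with every siRNA library. NRAS, which encodes a RAS protein, had 228 and 204 CPM in siRNA control and 56.4 and 52.6 in ETS1 siRNA, a 3.97-fold decrease (SE 0.14 on the log2 scale, adjusted p = 0.0027). PTPN11, whose phosphatase SHP2 promotes RAS activation, had 326 and 289 CPM against 133 and 111, a 2.52-fold decrease (adjusted p = 0.011). NRAS stood at 261 and 257 CPM in shCON against 247 and 266 in shETS1 (-0.02, adjusted p = 0.86). The difference between the knockdowns was 1.95 for NRAS (SE 0.14) and 0.87 for PTPN11 (SE 0.16). Effects of the siRNA sequences other than loss of ETS1 cannot be told apart here. PTPN11, ARAF and MAP2K1 overlap genes on the other strand.

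Genes that respond to ERK without inhibiting it numbered 16. After stable knockdown 11 fell and 3 rose, beside 30.9% and 29.7% of all genes tested, with a median of -1.10. FOSL1, which encodes an AP-1 subunit and is a standard readout of ERK, had 23.0 CPM in both shCON libraries and 2.44 and 2.14 in shETS1, a 10.0-fold decrease (SE 0.14 on the log2 scale, adjusted p = 3.1e-12). ETV4, an ETS factor, fell by 2.43 (SE 0.12), HBEGF, a ligand of the epidermal growth factor receptor, by 2.46 (SE 0.13), and IER3 by 1.68 (SE 0.08). EPHA4, an ephrin receptor, went the other way, from 23.7 and 24.7 CPM to 103 and 90.3, a rise of 2.00 (SE 0.09). FOS and JUNB, named here after their values were seen, also rose, by 0.63 (SE 0.15) and 0.43 (SE 0.09). After siRNA 2 of the 16 were called, both lower, beside 2.27% of all genes tested called lower. They were EPHA2 at -0.65 (SE 0.13, adjusted p = 0.064) and HBEGF at -1.17 (SE 0.27, adjusted p = 0.092). FOSL1 had 367 and 292 CPM in the controls and 282 and 328 after ETS1 siRNA (-0.11, SE 0.15). The count of 2 became 0 at an adjusted p under 0.05 and without the first siRNA control library, 1 without the second ETS1 siRNA library and 3 without the second siRNA control library. ETV4 and IER3 share a few exon bases with neighbours on the other strand.

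**Figure D4:**
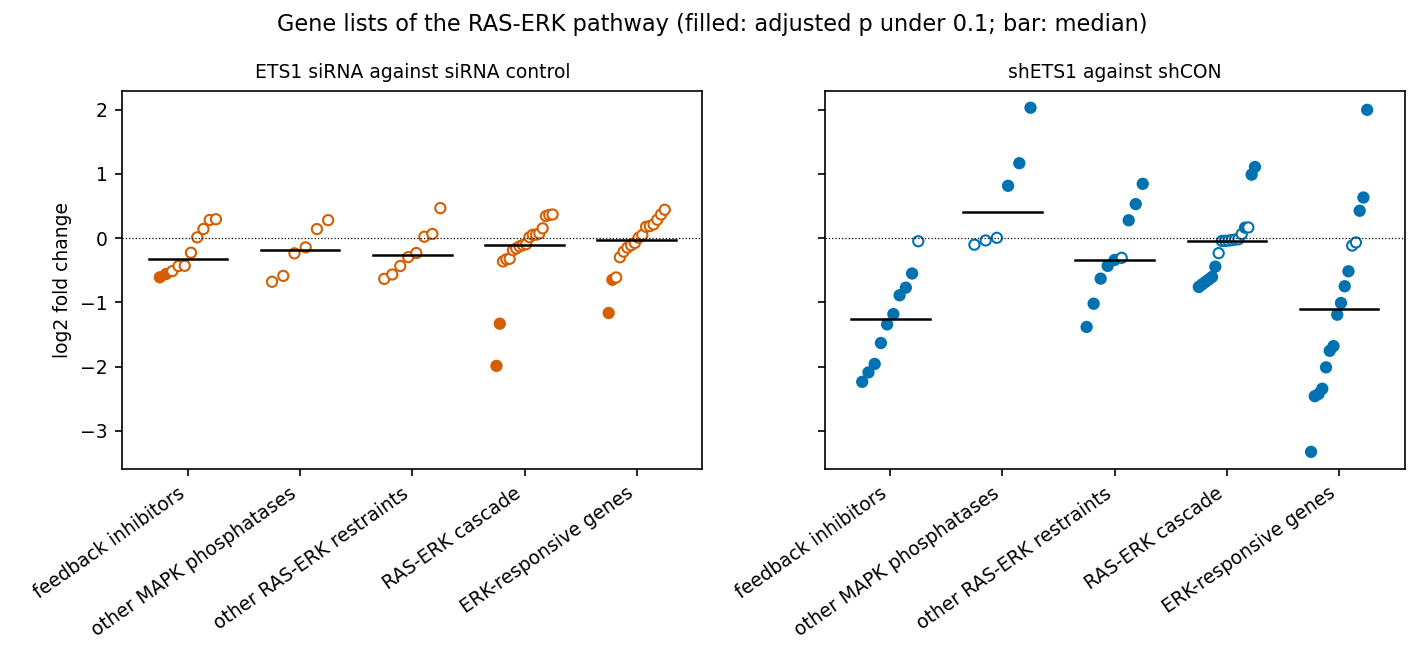
Log2 fold change of each tested gene of the 10 feedback inhibitors and of 4 pathway lists after transient (left) and stable knockdown (right). Filled points passed an adjusted p of 0.1 and bars are medians of the tested genes, which after stable knockdown were -1.26, 0.41, -0.34, -0.04 and -1.10 from left to right.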

How the data were processed

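RNA from SCC25 cells was made into TruSeq libraries and sequenced as short single-end reads. Per the labels and the methods, the authors aligned reads to GRCh37 with TopHat2 2.1.1 and Bowtie2 2.2.6 and counted them per gene with featureCounts 1.5.0. The authors deposited unnormalized counts, listed by gene symbol for the siRNA and for the shRNA libraries, and every per-sample column was used. Knockdown and control libraries of the same table were compared by edgeR 4.0.16 (R 4.3.3; quasi-likelihood F-test, two-sided) after TMM scaling and filterByExpr, with group as the one term. Benjamini-Hochberg adjustment ran over all genes tested, and 0.1 was the threshold, as in the study, which used DESeq2. DESeq2 1.42.0 was an alternative. Standard errors were |log2 fold change| / sqrt(F), and 95% intervals used the t distribution of the fit. The difference between knockdowns was a contrast over all 8 libraries. RPKM used union exon lengths of GENCODE genes on GRCh37. The scripts were tested on simulated data. The 10 genes and the lists were chosen with earlier results of these data known. All 10 genes and ETS1 are named, and from each of the 4 other lists up to 5 called genes per knockdown in order of adjusted p. DUSP2, DUSP8, DUSP9, SPRY3, FOS and JUNB were named beyond this rule, after their values were seen.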

Additional observations from a re-analysis of the deposited data

Results flagged for a closer look

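The changes after stable and after transient knockdown differed for 26 of the genes named by the rule above. This was the test of the difference itself in one fit of all 8 libraries (edgeR, adjusted p under 0.1). Over all 17190 genes tested 34.8% were called in that test, and the genes outside the 10 inhibitors were named because they were called in at least 1 knockdown, which by itself favours a called difference. Values are the stable log2 fold change minus the transient one. Among the inhibitors these were PHLDA1 at -1.82, SPRY2 at -1.66, DUSP4 at -1.60, SPRY4 at -1.55, DUSP7 at -1.19, DUSP6 at -1.04 and SPRED2 at -0.71. ETS1 itself differed by 1.23.

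Of the other MAP kinase phosphatases, DUSP1 differed by 2.15, DUSP16 by 1.03 and DUSP10 by 0.87, all toward higher values in the stable cells. Of the other restraints, LRIG1 differed by -1.17, DAB2IP by -0.92 and PEBP1 by 0.44. In the cascade, NRAS differed by 1.95, SOS2 by 1.03 and PTPN11 by 0.87, while RPS6KA1 differed by -0.93, ARAF by -0.75, RPS6KA3 by -0.54 and MAP2K1 by -0.44. Of the ERK-responsive genes, FOSL1 differed by -3.24, ETV4 by -2.62, IER3 by -1.55 and HBEGF by -1.32, and EPHA4 by 1.70.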

How the results depend on the processing

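The count of inhibitors called after stable knockdown, 9, stayed between 7 and 10 under the other settings, with 7 of 8 tested when DUSP4 and SPRY1 were dropped by a filter on protein-coding genes of at least 1 TPM, and between 8 and 9 when 1 library was left out. The 7 called differences stayed between 6 and 8, and between 7 and 8 when 1 library was left out. The 2 calls after siRNA were the least stable. They became 4 with no filter on low counts, 5 in one fit of all 8 libraries, and 0 at an adjusted p under 0.05. With 1 library left out they ranged from 0 to 4, with 4 when ETS1 siRNA replicate 1 was dropped, 1 when its replicate 2 was dropped and 0 without either siRNA control library. With the replicate number as a block there were 0, and with the numbers crossed, an alternative chosen after seeing the data, 5. Replicate differences of control and knockdown correlated at -0.54 in the siRNA and -0.20 in the shRNA libraries, and the numbers are not known to pair samples. DESeq2 called 3 other restraints after siRNA in place of 0, and 1 ERK-responsive gene in place of 2. The lists after siRNA moved under other settings too. The other phosphatases, 0 called, gave 1 with no filter, with the 1 TPM filter and with all 8 libraries. The other restraints gave 3 with no filter and 2 with all 8 libraries, and the cascade, 2 called, gave 5 with all 8. The ERK-responsive genes gave 4 with no filter, 3 with all 8 libraries and 0 with the replicate block. Crossed numbers gave 2, 4, 8 and 4 for these lists in turn. SPRY1 after siRNA changed sign to -0.0074 with library size scaling, -0.10 when ETS1 siRNA replicate 2 was left out and -0.32 for siRNA control replicate 1, in a range from -0.32 to 0.40 with 1 library left out. SPRED1 after stable knockdown changed sign to 0.0079 without shCON replicate 2 and 0.0025 without shETS1 replicate 2, in a range from -0.11 to 0.0079. The causes were not tested. Over all genes, the 502 calls after siRNA became 1466 with no filter, 797 with DESeq2, 793 with the study's filter, 2166 with all 8 libraries, 190 at 0.05, 97 with the block and 3238 with crossed numbers, and ranged from 72 to 1478 with 1 library left out. Library size scaling turned the 4900 higher and 5088 lower calls after stable knockdown into 3624 and 6269.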
